A study of Homo sapiens with 36 samples.

Results

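MOLM13 cells treated with cytarabine were compared with MOLM13 cells treated with the solvent DMSO, and the members of the comparison are these 6 libraries of the 36 in the series. They were chosen by the cell line and treatment labels alone. The treated cells received 0.1 µM cytarabine for 24 h and the controls received DMSO for 24 h, with 3 libraries labelled as biological replicates in each group. The rest of the series holds HL60 and OCIAML3 cells and 2 further treatments, daunorubicin and the combination of both drugs. MOLM13 is an established human cell line of acute myeloid leukemia that carries a KMT2A-MLLT3 fusion and an internal tandem duplication in FLT3, so the comparison describes 1 line in culture and not a range of leukemias. Whether the replicates are separate cultures or treatment days is not stated, and the tests therefore rest on the spread among these 6 libraries, which may be technical.

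Cytarabine is a cytidine analog that enters cells through nucleoside transporters, is phosphorylated by deoxycytidine kinase and stalls DNA polymerases once it is built into DNA. Stalled forks activate checkpoint kinases, and these stabilize the transcription factor p53, which binds pairs of 10-base half-sites and induces genes of cell cycle arrest, repair and death. MYC is a transcription factor of growth that binds E-boxes, and its targets include genes that build ribosomes.

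Total RNA was sequenced in pairs without strand information, and the values are Salmon estimated counts summed per gene. The totals ranged from 26743075 to 37481014 counts (median 37295005) with cytarabine, against 31282324 to 32986542 (median 32189777) with DMSO. The first principal component held 56.9% of the variance and placed the cytarabine libraries between 41 and 42.6 and the DMSO libraries between -55.7 and -31.1, with DMSO replicate 2 the control nearest to the treated libraries. Several RNA classes moved with the treatment. Mitochondrial transcripts took 5.47% to 5.83% of the counts with cytarabine, against 4.64% to 4.83% with DMSO, and transcripts annotated as retained introns took 4.84% to 5.25% with cytarabine, against 4.43% to 4.58% with DMSO. Their part in the gene results was not tested. In bulk RNA, a change in which cells survived and a change in the RNA of each cell cannot be told apart.

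Of 15272 genes tested, 1329 (8.7%) were called, 1157 higher with cytarabine (7.58%) and 172 lower (1.13%). A call required an edgeR false discovery rate (FDR) below 0.05 together with a change of more than 2-fold (log2 fold change beyond 1). Without the fold threshold the directions were balanced, with 3180 genes higher (20.8%) and 3424 lower (22.4%). Against a null of a 2-fold change (glmTreat), 165 genes were called higher and 8 lower. The 3 cytarabine libraries lay above all DMSO libraries for 27.2% of the genes and below them for 28%, so a lack of overlap is common here. The genes called higher were mostly scarce in control cells, since 580 of them (50.1%) were under 1 CPM with DMSO and 148 (12.8%) were at 10 CPM or more with DMSO. The low-count filter keeps a gene with enough reads in 1 group alone. A scarce gene could therefore be tested because it was high in that group, which can raise the share called in lists of scarce genes. CPM are counts scaled to a common library total and normalized by TMM over the 6 libraries, group values are means ± SD over 3 libraries, and log2 fold changes are given ± SE from the edgeR fit. Of the 9128 genes at 10 CPM or more with DMSO, 148 (1.62%) were called higher and 70 (0.767%) lower, and at FDR alone 1650 were higher and 3190 lower. The median log2 fold change of all genes tested was 0.0166.

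Markers of MOLM13 stayed within 2-fold after treatment, and more were lower than higher. Of 12 genes that mark the line, 11 were tested and none was called. At FDR alone 1 was higher and 6 were lower (background 20.8% and 22.4%), with a median log2 fold change of -0.33. The one that was higher was PTPRC, the surface phosphatase CD45, at 0.43, and those that were lower included the transcription factor genes MEF2C at -0.40 and HOXA10 at -0.33. FLT3, the receptor kinase with the duplication, was at 391 ± 46.4 CPM with cytarabine and 362 ± 35.4 CPM with DMSO. The surface marker CD33 was at 137 ± 5.85 CPM with cytarabine and 128 ± 12 CPM with DMSO, and SPI1, the myeloid transcription factor PU.1, at 258 ± 18.3 CPM with cytarabine and 243 ± 17.4 CPM with DMSO. Markers of other blood cells were at or near 0. Of 16 erythroid markers 8 had no read in the 6 libraries, including AHSP, and 14 had fewer than 30 reads in each group. PF4 and PPBP of platelets, EBF1 of B cells and CD2, GZMA and GZMK of T and NK cells had no read in the 6 libraries. All 3 T and NK genes tested were called higher (background 7.58%). NKG7, a granule protein, was at 48, 36.4 and 50.5 CPM with cytarabine, against 15.7, 22.4 and 17.7 CPM with DMSO, and TRAC, the constant region of the T cell receptor alpha chain, was at 16.7, 18.6 and 16.9 CPM with cytarabine, against 4.80, 4.69 and 5.69 CPM with DMSO. CD3E of the same receptor complex had 2 reads in the cytarabine libraries and 0 in the DMSO libraries. CD3D, the third gene, was at 1.01 ± 0.364 CPM with cytarabine and 0.425 ± 0.124 CPM with DMSO and lost its call without any one of 5 of the 6 libraries (FDR 0.057 to 0.13).

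Targets of p53 rose in all 3 lists examined. Of 24 genes of arrest and feedback, 22 were tested and 15 were called higher, none lower, with a median log2 fold change of 1.54 against 0.0166 over all genes. Of 20 death genes 7 of 16 tested were called higher (median 0.78), and of 22 repair and metabolism genes 8 of 19 tested were called higher (median 0.90). None of the 3 lists had a member called lower. Of all genes tested, 7.58% were called higher and 1.13% lower. The count of 15 held in each of the 6 fits that left out 1 library. The lists collect known p53 targets and were compiled with earlier results of these data known.

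CDKN1A, the inhibitor p21 of cyclin-dependent kinases on chr6:36676460-36687337 (GRCh38), was at 1560.3, 1777 and 1511 CPM with cytarabine, against 106, 279 and 152 CPM with DMSO. Every treated library lay far above every control, and DMSO replicate 2 was the highest control. The log2 fold change was 3.17 ± 0.31 with an FDR of 0.000138. GDF15, a secreted stress cytokine on chr19:18374731-18389176, was at 30.1, 45.7 and 25.8 CPM with cytarabine, against 0.171, 0.591 and 0.402 CPM with DMSO, a log2 fold change of 6.43 ± 0.35. It was nearly silent in control cells, and every treated library was above 25 CPM. MDM2, the ubiquitin ligase that degrades p53, was at 438, 539 and 458 CPM with cytarabine, against 132, 194 and 149 CPM with DMSO, a log2 fold change of 1.60 ± 0.14.

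**Figure D1:**
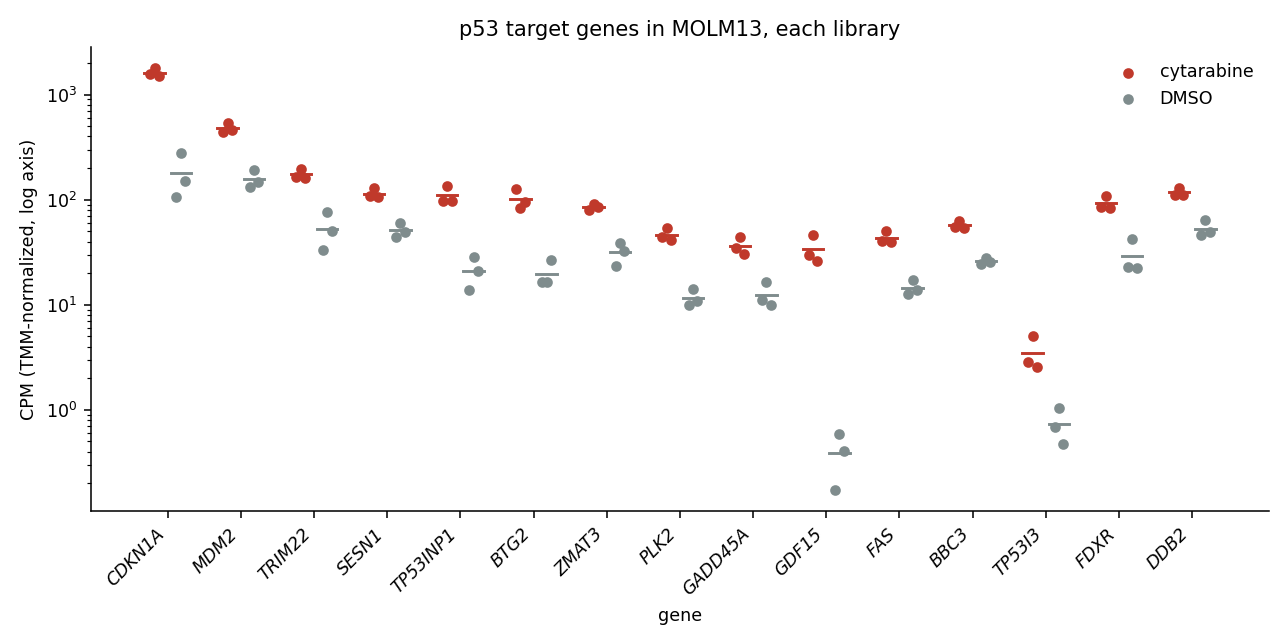
Levels of 15 p53 target genes in each MOLM13 library, in TMM-normalized CPM on a log axis. Points are libraries, lines are means, cytarabine is red and DMSO gray. CDKN1A was at 1616 CPM on average with cytarabine and 179 CPM with DMSO and the groups did not overlap for any gene shown.

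Other arrest genes rose from varied control levels. TP53INP1, a p53 cofactor in autophagy and death, was at 97, 135 and 98.2 CPM with cytarabine, against 13.8, 28.7 and 21.1 CPM with DMSO (log2 fold change 2.38 ± 0.24). The antiproliferative gene BTG2 was at 127, 83.7 and 94.2 CPM with cytarabine, against 16.4, 16.5 and 26.5 CPM with DMSO (log2 fold change 2.36 ± 0.21). The stress kinases PLK2 and PLK3 had log2 fold changes of 2.00 ± 0.15 and 1.47 ± 0.11. ZMAT3, an RNA-binding protein, was at 80.3, 92 and 85.6 CPM with cytarabine, against 23.4, 38.9 and 32.4 CPM with DMSO (log2 fold change 1.44 ± 0.15). TRIM22, GADD45A, PHLDA3 and SESN1 were called higher as well, with log2 fold changes of 1.71, 1.55, 1.53 and 1.16. The phosphatase gene PPM1D and the cyclin gene CCNG1, both p53 targets, passed the FDR without reaching the fold threshold (0.55 and 0.44).

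The p53 targets of death included receptors. FAS, the receptor of FAS ligand, was at 40.1, 50.3 and 39.4 CPM with cytarabine, against 12.7, 17.2 and 13.7 CPM with DMSO (log2 fold change 1.57 ± 0.14). The decoy receptor TNFRSF10C was at 3.07, 3.58 and 2.84 CPM with cytarabine, against 0.0685, 0.427 and 0.234 CPM with DMSO (log2 fold change 3.67 ± 0.44). The signaling receptor TNFRSF10B was at 257 ± 14.8 CPM with cytarabine and 136 ± 22 CPM with DMSO, which passed the FDR at a log2 fold change of 0.91, short of the threshold. EDA2R, TP53I3 and PIDD1, the scaffold of the PIDDosome, were called higher at 1.57, 2.24 and 1.23. BBC3, the BH3-only protein PUMA, was at 54.5, 62.1 and 54.2 CPM with cytarabine, against 24.4, 28.1 and 25.5 CPM with DMSO (log2 fold change 1.13 ± 0.08), and the pore-forming BAX was at 183 ± 7.88 CPM with cytarabine and 118 ± 13.3 CPM with DMSO with a log2 fold change of 0.64. In a list of death receptors and caspases, of 24 tested members 2 were called higher, FAS and BIRC3, an inhibitor of apoptosis, at 2.62, a share near the 7.58% of all genes, and none was called lower. In the wider BCL2 family 3 of 15 tested members were called higher and none lower (background 7.58% and 1.13%). These were BBC3, BMF at 1.17 and BCL2A1 at 2.07. Of the proteins that restrain death, BCL2 was at 161 ± 5.12 CPM with cytarabine and 187 ± 12 CPM with DMSO (log2 fold change -0.21 ± 0.06, FDR 0.0218) and MCL1 at 247 ± 18.7 CPM with cytarabine and 235 ± 10.8 CPM with DMSO (log2 fold change 0.07 ± 0.07, FDR 0.435).

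Repair and metabolism targets rose as well. FDXR, ferredoxin reductase of mitochondria, was at 85.2, 109 and 83.9 CPM with cytarabine, against 23.1, 41.8 and 22.3 CPM with DMSO (log2 fold change 1.67 ± 0.23). DDB2, which recognizes ultraviolet lesions, was at 111, 130.3 and 112 CPM with cytarabine, against 46.3, 63.8 and 49.1 CPM with DMSO (log2 fold change 1.15 ± 0.12). The growth factor gene KITLG was at 4.12, 12.5 and 4.09 CPM with cytarabine, against 0.651, 1.05 and 1.31 CPM with DMSO, highest in cytarabine replicate 2. POLH, a translesion polymerase, was called at 1.16 but lay at 0.95 without cytarabine replicate 2. XPC and RRM2B, the p53-induced subunit of ribonucleotide reductase, passed the FDR at 0.82 and 0.90.

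The genome around the gene starts was searched for a p53 site, defined as 2 abutting half-sites with at most 1 mismatch outside the fixed core bases, within 2500 bases on either side. The rule was loosened to 1 mismatch after the first values were seen. Such a site lay near 6 of 28 p53 list members called higher (21.4%), against 2 of 27 that were not called (7.41%) and 54 of all 12237 protein-coding genes tested (0.441%). Among all protein-coding genes called higher it was 10 of 887 (1.13%), and among those called lower 1 of 115 (0.87%). The 6 sites are shown because they lie beside genes that rose, with the 20 bases of the site in capitals and 5 flanking bases on each side, on the strand of the gene (GRCh38).
PLK2, chr5:58462274-58462293 (-): atgagAAACATGCCTGGACTTGCCCtgcac
ZMAT3, chr3:179070188-179070207 (-): tcataAAACAAGTCCAGACATGCCTaggca
GDF15, chr19:18373947-18373966 (+): gcctcAGACCTGCCCGGACATGTCCaagtc
DDB2, chr11:47214969-47214988 (+): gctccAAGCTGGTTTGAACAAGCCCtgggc
GADD45A, chr1:67686775-67686794 (+): gtacaGAACATGTCTAAGCATGCTGgggac
EDA2R, chrX:66638713-66638732 (-): tctgaGAACATGCCTGGACGTGTCCaacaa
The sites of PLK2 and ZMAT3 matched with 0 mismatches and the other 4 with 1. Counted along the gene, their centers lay at -2144 bases from the start of PLK2, -774 from that of GDF15, 514 from DDB2, 576 from EDA2R, 1584 from GADD45A and 2018 from ZMAT3. A match describes the letters and does not show binding.

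MDM2 has a second promoter in its first intron that is known to respond to p53. The transcript MDM2-211, whose start at chr12:68809017 lies 840 bases after the first MDM2 start, took 15.3%, 18.5% and 16.5% of the TPM of the gene with cytarabine, against 5.66%, 9.65% and 7.39% with DMSO. The groups did not overlap. These shares rested on few estimated reads of MDM2-211, 369, 516 and 290 with cytarabine, against 26.6, 75.9 and 45.7 with DMSO. MDM2-224, which starts 825 bases after the first start, did not share this pattern, at 11.9%, 8.46% and 9.72% with cytarabine, against 11.4%, 12.8% and 9.55% with DMSO, and the groups overlapped. MDM2-202, which begins at the first start, took 52.1%, 56.2% and 54.6% with cytarabine, against 64.3%, 58.2% and 56.5% with DMSO, also without overlap. It held far more estimated reads, 14300, 17800 and 10800 with cytarabine, against 3490, 5230 and 4020 with DMSO. For CDKN1A 1 transcript, CDKN1A-201, took 91.2% to 92.4% with cytarabine and 89.2% to 94.7% with DMSO. Transcript shares rest on the division of shared reads by Salmon and were not tested.

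MYC and the genes of ribosome biogenesis fell. MYC was at 225, 222 and 283 CPM with cytarabine, against 728, 536 and 771 CPM with DMSO, a log2 fold change of -1.48 ± 0.14 with an FDR of 0.000137. Of 30 genes of ribosome biogenesis and RNA polymerase I, 28 were tested. Of these 7 were called lower and none higher (background 1.13% and 7.58%), with a median log2 fold change of -0.83. At FDR alone 27 of the 28 were lower (background 22.4%). The 7 calls were NCL, DDX21, UTP20, RRS1, RRP9, NOP16 and LYAR, and each kept its call when any 1 library was left out. No member was called under glmTreat, as each change was close to 2-fold.

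NCL, the nucleolar protein nucleolin, was at 894, 966 and 966 CPM with cytarabine, against 2021, 1856 and 2012 CPM with DMSO (log2 fold change -1.06 ± 0.06). Every treated library was below every control. DDX21, a helicase of the nucleolus, was at 296, 241 and 305 CPM with cytarabine, against 649, 596 and 634 CPM with DMSO (log2 fold change -1.16 ± 0.09). UTP20, of the small subunit processome, was at 47.4, 53.1 and 53.1 CPM with cytarabine, against 122, 109.6 and 130.1 CPM with DMSO (log2 fold change -1.23 ± 0.08). The SD over libraries was small beside the difference for each of them. RRS1 of large subunit assembly and RRP9 of the small subunit had log2 fold changes of -1.19 ± 0.08 and -1.16 ± 0.08. NPM1, the nucleolar protein nucleophosmin, was at 993 ± 71.7 CPM with cytarabine and 1619 ± 73.3 CPM with DMSO, a log2 fold change of -0.71 that passed the FDR alone. Chaperones moved the same way with smaller folds, since 22 of 26 tested were lower at FDR alone (background 22.4%). None was called and the median was -0.48. HSPD1 of mitochondria was at 798 ± 60.1 CPM with cytarabine and 1215 ± 7.60 CPM with DMSO (-0.61).

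**Figure D2:**
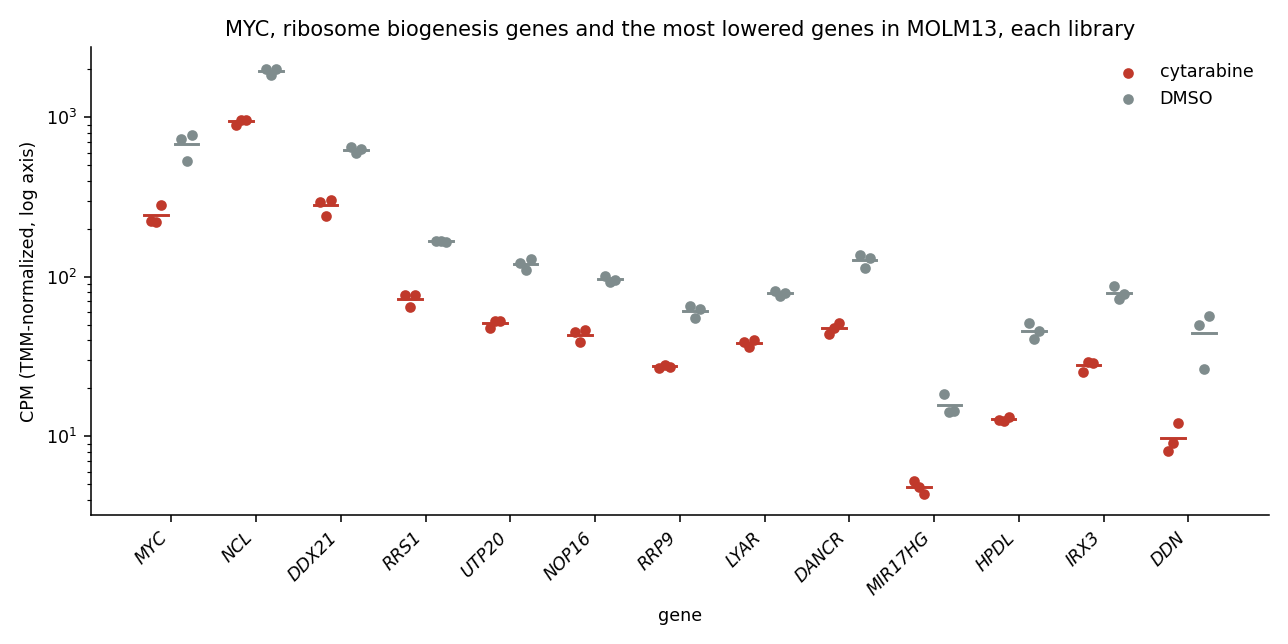
Levels of MYC, 7 ribosome biogenesis genes, 2 noncoding host genes and 3 of the most lowered coding genes in each MOLM13 library, in TMM-normalized CPM on a log axis. Points are libraries and lines are means, with cytarabine in red and DMSO in gray. MYC was at 243 CPM with cytarabine and 678 CPM with DMSO, and the groups did not overlap for any gene shown.

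Long noncoding RNAs moved in both directions. Of 22 tested in the list of regulatory members 3 were called higher and 2 lower (background 7.58% and 1.13%), with a median of 0.25. Those called higher were MIR34AHG, the host of a microRNA that p53 is known to induce, at 1.48, LUCAT1 at 2.52 and PURPL at 1.09. The members called lower were MIR17HG and DANCR. MIR17HG, the host of a microRNA cluster that MYC is known to activate, was at 5.25, 4.80 and 4.35 CPM with cytarabine, against 18.3, 14.2 and 14.4 CPM with DMSO (log2 fold change -1.70 ± 0.15), and DANCR, a long noncoding RNA that hosts a small nucleolar RNA, was at 43.6, 48 and 51.3 CPM with cytarabine, against 138, 113 and 131 CPM with DMSO (log2 fold change -1.42 ± 0.09). Outside the list, the small nucleolar RNA host gene SNHG10 was at 3.47 ± 0.919 CPM with cytarabine and 9.39 ± 0.39 CPM with DMSO (log2 fold change -1.43 ± 0.20). SNHG19 was called at -1.23 but lay at -0.939 without DMSO replicate 3 and at -0.999 without cytarabine replicate 2.

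Among coding genes at 5 CPM or more with DMSO and without overlap, the largest decreases were those of DDN, HPDL, SENP3-EIF4A1, IRX3 and MYC. DDN, which encodes dendrin, was at 8.02, 9.11 and 12.1 CPM with cytarabine, against 49.9, 26.5 and 56.4 CPM with DMSO (log2 fold change -2.19 ± 0.27), with DMSO replicate 2 below the other controls. HPDL, an enzyme of coenzyme Q synthesis, was at 12.7, 12.4 and 13.2 CPM with cytarabine, against 51.1, 40.6 and 45.9 CPM with DMSO (log2 fold change -1.84 ± 0.10), and IRX3, a homeobox gene, was at 25.2, 29.2 and 28.9 CPM with cytarabine, against 87, 72 and 78.2 CPM with DMSO (log2 fold change -1.51 ± 0.09). NDUFAF4, an assembly factor of respiratory complex I, and PLD6, a phospholipase of the mitochondrial surface, had log2 fold changes of -1.42 ± 0.09 and -1.31 ± 0.09. SENP3-EIF4A1 is a readthrough transcript that shares sequence with both of its parent genes, so its value of -1.78 is uncertain. BEND3, EEF1AKMT4, FOXA1, PEMT and IGLL1 completed the 12, at -1.41, -1.41, -1.36, -1.36 and -1.47.

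The E-box CACGTG, which reads the same on both strands, was counted in RefSeq promoters of 250 bases before and 50 after each start (GRCh38.p14), for 9835 tested protein-coding genes matched by symbol. It was in 20 of 85 promoters of genes called lower (23.5%), in 42 of 644 of genes called higher (6.52%) and in 1005 of all 9835 (10.2%). In the ribosome biogenesis list it was in 6 of 24 (25.0%). This motif was added after the values were seen, and the shares are descriptions. Stretches of 30 bases are shown for some of the genes called lower, picked as examples after their values were seen. Others with the E-box, such as TNFRSF8, TGFB2 and CIART, are not shown. Each stretch is on the strand of the gene, with the E-box in capitals and its coordinates and strand given first.
UTP20, chr12:101280095-101280100 (+): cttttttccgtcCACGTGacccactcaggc
RRP9, chr3:51941904-51941909 (-): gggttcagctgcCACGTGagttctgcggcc
BEND3, chr6:107115521-107115526 (-): ccagcgcgggccCACGTGgagccactgcgc
EEF1AKMT4, chr3:184249575-184249580 (+): ggacggaagttcCACGTGtttgtgttgagc
SLC7A5, chr16:87869632-87869637 (-): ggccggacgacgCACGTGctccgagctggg
The first base of the E-box lay at -10 from the start of UTP20, -5 from RRP9, -11 from BEND3, -97 from EEF1AKMT4 and -130 from SLC7A5, the amino acid transporter LAT1. SLC7A5 was at 226 ± 22.1 CPM with cytarabine and 457 ± 43.9 CPM with DMSO (log2 fold change -1.01 ± 0.09) and lost its call, at -0.98, -0.97 and -0.95, without DMSO replicate 1, DMSO replicate 3 and cytarabine replicate 1. The AP-1 motif TGANTCA, searched on both strands, was in 55 of 644 promoters of genes called higher (8.54%), 2 of 85 of genes called lower (2.35%) and 437 of 9835 (4.44%).

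DNA replication genes changed little. Of 36 members all were tested and none was called, with 4 higher and 10 lower at FDR alone (background 20.8% and 22.4%) and a median of -0.12. MCM2, a subunit of the replicative helicase, was at 277 ± 19.1 CPM with cytarabine and 370.1 ± 18.2 CPM with DMSO (log2 fold change -0.42 ± 0.07), and MCM5 of the same complex at 284 ± 12.4 CPM with cytarabine and 322 ± 21.1 CPM with DMSO (log2 fold change -0.18 ± 0.06, FDR 0.0489). PCNA, the sliding clamp and also a p53 target, was at 554, 724 and 533 CPM with cytarabine, against 519.6, 480.4 and 464 CPM with DMSO (log2 fold change 0.31 ± 0.11, FDR 0.0496). Of 59 replication-dependent histone genes 30 were tested, and 2 were called higher and 1 lower (background 7.58% and 1.13%). These counts ran from 1 to 3 and from 0 to 2 when 1 library was left out. Of 30 genes of checkpoint and repair none was called. BRCA1 was at 169.7 ± 20.1 CPM with cytarabine and 129.5 ± 5.75 CPM with DMSO (log2 fold change 0.39 ± 0.08) and CHEK1 at 51 ± 2.15 CPM with cytarabine and 62.1 ± 7.58 CPM with DMSO (log2 fold change -0.28 ± 0.09).

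In the G1 to S list 3 of 27 tested members were called higher, CDKN1A, CDKN1C and CCNE2, and none lower (background 7.58% and 1.13%). Cyclin E2, which drives entry into S phase, was at 136, 247 and 122 CPM with cytarabine, against 71, 83.4 and 60.4 CPM with DMSO. Cytarabine replicate 2 was far above the other treated libraries, and without it the log2 fold change of 1.23 was 0.85. CDKN1C, the inhibitor p57, was under 2 CPM in every library and lost its call without DMSO replicate 1 (FDR 0.0566) or cytarabine replicate 2 (FDR 0.0527). E2F1, a transcription factor of S phase genes, was at 41.3, 55.2 and 44.6 CPM with cytarabine, against 57.9, 48.8 and 49.97 CPM with DMSO, with overlapping groups (log2 fold change -0.15 ± 0.11, FDR 0.318).

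Mitotic genes were lower more often than higher, mostly below the fold threshold. Of 30 members all were tested, 15 were lower and 3 higher at FDR alone (background 22.4% and 20.8%), and the median was -0.31. The single call (0 to 2 when 1 library was left out) was CDC20, which activates the anaphase-promoting complex, at 79.1, 40.9 and 87.4 CPM with cytarabine, against 161, 183 and 153 CPM with DMSO (log2 fold change -1.27 ± 0.23). It lay at -0.998 without cytarabine replicate 2, and it did not pass the FDR in the fits of 12 and of 36 libraries. PLK1, a mitotic kinase, was at 99.1, 54.2 and 109 CPM with cytarabine, against 160.0, 154 and 147 CPM with DMSO (log2 fold change -0.81 ± 0.21, FDR 0.013), and CCNB1, cyclin B1, at 135, 57.2 and 139 CPM with cytarabine, against 177, 193 and 164 CPM with DMSO (log2 fold change -0.69 ± 0.27, FDR 0.0692). In all 3 genes cytarabine replicate 2 was the lowest of the 6 libraries, while it was the highest for CCNE2. MKI67, a marker of cycling cells, was at 353 ± 16.2 CPM with cytarabine and 502 ± 13.3 CPM with DMSO (log2 fold change -0.51 ± 0.06).

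The genes that handle cytarabine were not called. Of 20 members for its uptake, activation and inactivation, 17 were tested and the median was -0.06. At FDR alone 2 were higher and 8 lower (background 20.8% and 22.4%). DCK, the kinase that activates the drug, was at 73.1, 85.4 and 67.9 CPM with cytarabine, against 78.2, 72.7 and 76.2 CPM with DMSO (log2 fold change -0.0033 ± 0.09, FDR 0.979). SLC29A1, the nucleoside transporter ENT1, was at 104, 132 and 116 CPM with cytarabine, against 206, 170.5 and 198 CPM with DMSO (log2 fold change -0.71 ± 0.10, FDR 0.000683). SAMHD1, which hydrolyzes the active triphosphate, was at 178, 140.5 and 166 CPM with cytarabine, against 93, 99.8 and 101 CPM with DMSO (log2 fold change 0.72 ± 0.09, FDR 0.000326). So the transporter was lower and SAMHD1 higher, each without overlap and each short of 2-fold. CDA, which deaminates the drug, was under 1 CPM in every library. NT5C2, a nucleotidase, was at 131 ± 2.55 CPM with cytarabine and 119 ± 7.28 CPM with DMSO (log2 fold change 0.14 ± 0.06, FDR 0.0945).

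Nucleotide synthesis genes included 1 call among 24, higher, where 7.58% of all genes were called higher. ADA, adenosine deaminase, was at 152, 143 and 149.8 CPM with cytarabine, against 53.8, 53.9 and 53.8 CPM with DMSO (log2 fold change 1.46 ± 0.05, FDR 3.51e-06), with little spread within either group. RRM2 of ribonucleotide reductase was at 475 ± 107 CPM with cytarabine and 369 ± 27 CPM with DMSO (log2 fold change 0.36 ± 0.14, FDR 0.0606), and TK1, thymidine kinase, at 181 ± 33.7 CPM with cytarabine and 115 ± 17.9 CPM with DMSO (log2 fold change 0.65 ± 0.14). At FDR alone 13 members were lower and 3 higher (background 22.4% and 20.8%). In pyrimidine catabolism UPP1, uridine phosphorylase, was the only call of 9 tested (2 calls without cytarabine replicate 2, without DMSO replicate 3 or with the length offset), at 5.55 ± 1.52 CPM with cytarabine and 1.94 ± 0.582 CPM with DMSO (log2 fold change 1.51 ± 0.29).

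Most of the monocyte and macrophage genes tested rose. Of 40 markers 27 were tested, 14 were called higher and none lower (background 7.58% and 1.13%), with a median of 1.29. At FDR alone 20 were higher and 1 lower (background 20.8% and 22.4%). MNDA went the other way, with 800 reads with cytarabine and 1218 with DMSO. Scarce members such as TLR8, with 44 reads with cytarabine and 4 with DMSO, could pass the filter through the cytarabine group alone. ITGAM, the integrin CD11b, was at 84.7, 53.4 and 108 CPM with cytarabine, against 14.1, 19.6 and 25.2 CPM with DMSO (log2 fold change 2.06 ± 0.27), and ITGAX, CD11c, at 29.5, 22.3 and 32.9 CPM with cytarabine, against 5.65, 8.34 and 13 CPM with DMSO (log2 fold change 1.65 ± 0.27). CD86, a costimulatory ligand, was at 25.5, 17.8 and 27.3 CPM with cytarabine, against 4.18, 7.35 and 6.53 CPM with DMSO (log2 fold change 1.96 ± 0.23). For ITGAM, ITGAX and CD86 cytarabine replicate 2 was the lowest treated library and still above every control. The calprotectin subunits S100A8 and S100A9 had log2 fold changes of 2.40 ± 0.27 and 2.30 ± 0.20. The inhibitory receptors LILRB1 and LILRB2 were called at 1.29 and 2.24. Other markers of mature monocytes stayed near 0, as CD14 had 35 reads over the cytarabine libraries and 15 over the DMSO libraries, and FCN1, CD300E and MRC1 had none. LYZ, lysozyme, was at 1915, 1891 and 1812 CPM with cytarabine, against 684, 1719 and 974 CPM with DMSO and did not pass the FDR (0.0521), with DMSO replicate 2 near the treated libraries.

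The NADPH oxidase of phagocytes included subunits that rose. NCF1, the subunit p47phox on chr7:74774011-74789315, was at 528, 595 and 454 CPM with cytarabine, against 86, 105 and 80.2 CPM with DMSO (log2 fold change 2.54 ± 0.13). Its near-identical copies NCF1B and NCF1C were called at 2.84 and 2.85, and reads cannot be assigned with certainty among the 3 loci. CYBB, the catalytic subunit gp91phox, was at 30.6, 12.6 and 33.2 CPM with cytarabine, against 6.54, 9.52 and 11.5 CPM with DMSO (log2 fold change 1.46 ± 0.34). NCF4, p40phox, was at 137 ± 14.4 CPM with cytarabine and 92.1 ± 9.41 CPM with DMSO and passed the FDR at 0.58.

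Genes of the promyelocyte granule moved in both directions, at shares near those of all genes. Of 18 members 13 were tested and none was called, with 3 higher and 3 lower at FDR alone (background 20.8% and 22.4%) and a median of 0.12. The higher ones were BPI, a bactericidal protein, at 0.87, the protease inhibitor gene SERPINB1 at 0.71 and CST7 at 0.41. MPO, myeloperoxidase, was at 28.8, 29.6 and 26.6 CPM with cytarabine, against 55.5, 47.5 and 49.1 CPM with DMSO (log2 fold change -0.84 ± 0.08), and ELANE, neutrophil elastase, at 1045, 1344 and 1189 CPM with cytarabine, against 1545, 1603 and 1589.8 CPM with DMSO (log2 fold change -0.41 ± 0.08). Both were lower at FDR alone, as was PRTN3, proteinase 3, at -0.59. Among myeloid transcription factors 3 of 28 tested were called higher and only MYC lower (background 7.58% and 1.13%). CEBPB, a factor of myeloid differentiation, was at 48.1, 39.2 and 52.4 CPM with cytarabine, against 18.1, 22.5 and 20.7 CPM with DMSO (log2 fold change 1.19 ± 0.12), and ID1 was at 17.2 ± 0.979 CPM with cytarabine and 7.74 ± 0.239 CPM with DMSO (log2 fold change 1.15 ± 0.10). Of the HOX genes and their cofactors 20 were tested, 1 was called higher and 10 were lower at FDR alone (background 22.4%). HOXA9 was at 86.2 ± 5.08 CPM with cytarabine and 111 ± 5.83 CPM with DMSO (log2 fold change -0.36 ± 0.07), and MEIS1 at 43.1 ± 0.166 CPM with cytarabine and 57.7 ± 8.74 CPM with DMSO (log2 fold change -0.42 ± 0.10).

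**Figure D3:**
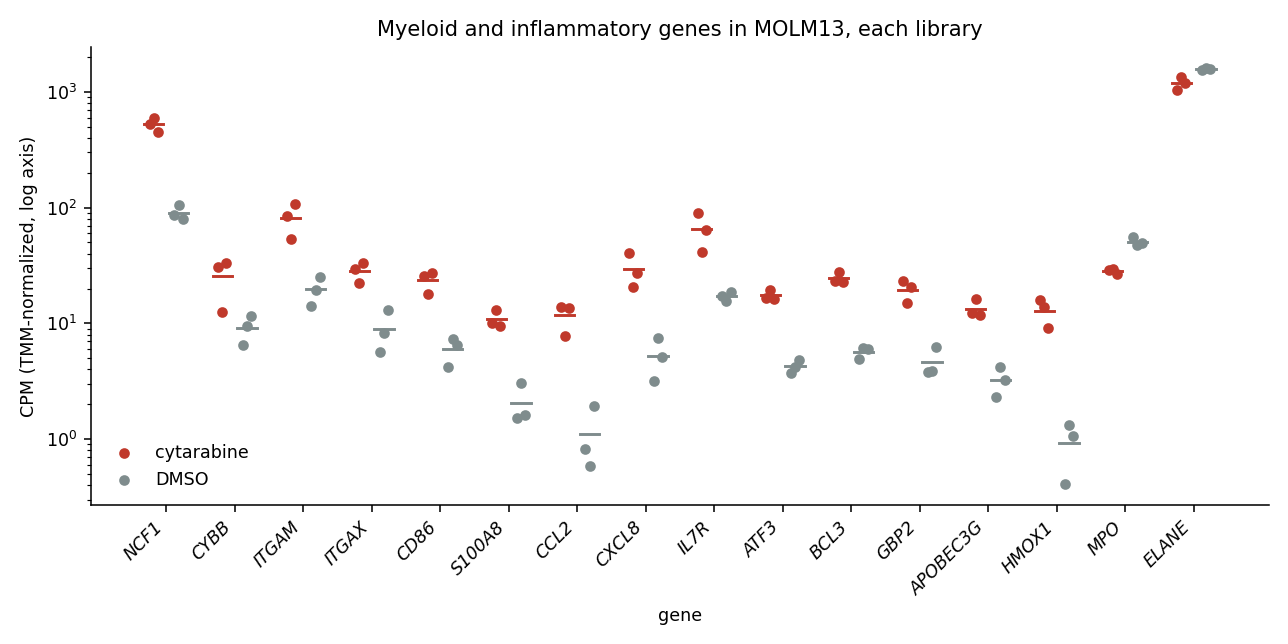
Levels of 16 myeloid and inflammatory genes in each MOLM13 library, in TMM-normalized CPM on a log axis. Points are libraries and lines are means, with cytarabine in red and DMSO in gray. ITGAM was at 82 CPM with cytarabine and 19.6 CPM with DMSO, while MPO was at 28.4 CPM with cytarabine and 50.7 CPM with DMSO.

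Few chemokine genes were tested, and most of those rose. Of 25 members only 9 were tested, and 6 were called higher (background 7.58%). Scarce members such as CCL3 and CCL4 (87 reads with cytarabine and 14 with DMSO) could pass the filter through the cytarabine group alone. The share called among tested members is therefore partly set by the filter. Untested members with few reads included CXCL2, with 8 reads with cytarabine and 17 with DMSO, and CXCL10, with 16 and 7. CXCL8, which attracts neutrophils, was at 40.9, 20.4 and 27.2 CPM with cytarabine, against 3.19, 7.49 and 5.09 CPM with DMSO (log2 fold change 2.49 ± 0.32). CCL2, which attracts monocytes, was at 13.9, 7.76 and 13.5 CPM with cytarabine, against 0.822, 0.591 and 1.94 CPM with DMSO (log2 fold change 3.39 ± 0.40). CCL3, the chemokine MIP-1 alpha, had 603 reads over the cytarabine libraries, at 1.56, 10.8 and 5.49 CPM, and 0 reads in the DMSO libraries. With 3 counts over the DMSO group as the floor, it was at least 178-fold higher. It spread more among treated libraries than the other chemokines. CXCL16 was at 1.14 ± 0.27 CPM with cytarabine and 0.366 ± 0.16 CPM with DMSO, and CCL20 and CCL23 were called at 1.38 and 1.38.

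Cytokine genes had 9 calls among 22 tested, all higher (background 7.58%). LIF, a cytokine of the interleukin-6 family, was at 3.23, 6.48 and 3.25 CPM with cytarabine, against 0.274, 0.394 and 0.201 CPM with DMSO (log2 fold change 3.88 ± 0.40), and OSM, oncostatin M of the same family, at 24.2, 18.7 and 28.2 CPM with cytarabine, against 8.60, 9.26 and 11.6 CPM with DMSO (log2 fold change 1.27 ± 0.17). IL1B, interleukin-1 beta, was at 2.02, 3.61 and 2.23 CPM with cytarabine, against 0.445, 0.886 and 0.535 CPM with DMSO (log2 fold change 2.07 ± 0.35), and CSF1, the macrophage growth factor, at 1.83 ± 0.64 CPM with cytarabine and 0.346 ± 0.0326 CPM with DMSO (log2 fold change 2.38 ± 0.36). LIF, IL1B and CSF1 were under 1 CPM in every DMSO library. Scarce members such as LIF could pass the filter through the cytarabine group alone, which can raise the share called. In the NF-kB list 6 of 21 tested were called higher (background 7.58%), among them BCL3 and RELB. BCL3, a nuclear coactivator of the pathway, was at 23.3, 27.6 and 22.6 CPM with cytarabine, against 4.90, 6.07 and 6.06 CPM with DMSO (log2 fold change 2.11 ± 0.13). RELB was at 1.39 ± 0.267 CPM with cytarabine and 0.287 ± 0.263 CPM with DMSO (log2 fold change 2.25 ± 0.54). NFKB1, which encodes p105 and p50, was at 62.9 ± 8.30 CPM with cytarabine and 71.3 ± 3.58 CPM with DMSO (log2 fold change -0.18 ± 0.10, FDR 0.155). Of the AP-1 and immediate early genes ATF3, a stress-induced factor, was at 16.6, 19.5 and 16.3 CPM with cytarabine, against 3.70, 4.23 and 4.85 CPM with DMSO (log2 fold change 2.03 ± 0.14) and JUN at 9.75, 9.52 and 14.1 CPM with cytarabine, against 1.92, 2.56 and 4.99 CPM with DMSO (log2 fold change 1.81 ± 0.32). These were the only members called higher of 26 tested, a share near the 7.58% of all genes, and MYC was called lower.

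Interferon-stimulated genes had 10 calls among 31 tested, all higher (background 7.58%), with a median of 0.78. GBP2, a guanylate-binding protein, was at 23.2, 15 and 20.4 CPM with cytarabine, against 3.77, 3.87 and 6.29 CPM with DMSO (log2 fold change 2.07 ± 0.23), and CMPK2 at 19.2 ± 1.87 CPM with cytarabine and 8.95 ± 0.608 CPM with DMSO (log2 fold change 1.10 ± 0.11). ISG15 passed the FDR short of the fold threshold, at 0.63. Of the APOBEC3 cytidine deaminases, all 5 tested of 9 were called higher (background 7.58%). The low-count filter can raise this share where members are scarce. APOBEC3G was at 12.3, 16.2 and 11.8 CPM with cytarabine, against 2.33, 4.23 and 3.21 CPM with DMSO (log2 fold change 2.04 ± 0.22), and APOBEC3H at 6.33, 7.40 and 5.79 CPM with cytarabine, against 0.583, 1.90 and 1.04 CPM with DMSO (log2 fold change 2.46 ± 0.35). Only these 2 kept their calls in each fit that left out 1 library. APOBEC3B, at 37.1, 40.4 and 38.6 CPM with cytarabine, against 16.3, 26.4 and 14.4 CPM with DMSO, lay at 0.93, 0.86 and 0.99 without DMSO replicate 1, DMSO replicate 3 and cytarabine replicate 2, against 1.03 with all libraries. APOBEC3C lay at 0.96, 0.95 and 0.92 without the same 3 libraries. APOBEC3F, below 1 CPM in every library, had FDR values from 0.0639 to 0.123 without any one of 5 of the 6 libraries. These genes are close paralogs, and some shared reads may be divided among them.

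Costimulatory and checkpoint ligands had 9 calls among 18 tested, all higher (background 7.58%). Scarce members such as ULBP2 could pass the filter through the cytarabine group alone. CD70, the ligand of CD27, was at 155, 155 and 171 CPM with cytarabine, against 53.2, 92.3 and 64 CPM with DMSO (log2 fold change 1.20 ± 0.17), and CD276, B7-H3, at 10.7, 4.18 and 8.62 CPM with cytarabine, against 1.20, 1.02 and 1.97 CPM with DMSO (log2 fold change 2.48 ± 0.38). TNFSF4, the ligand of OX40, was at 3.09 ± 1.53 CPM with cytarabine and 0.457 ± 0.0994 CPM with DMSO (log2 fold change 2.75 ± 0.41), and ULBP2, a stress ligand of the receptor NKG2D, at 2.88 ± 1.17 CPM with cytarabine and 0.433 ± 0.211 CPM with DMSO (log2 fold change 2.73 ± 0.43). Integrins and adhesion genes had 6 calls among 22 tested, all higher (background 7.58%). ITGB7 was at 66.1, 72.2 and 74 CPM with cytarabine, against 19.1, 37.4 and 28.1 CPM with DMSO (log2 fold change 1.33 ± 0.19) and ITGA6 at 31.5, 15.9 and 35.6 CPM with cytarabine, against 6.20, 9.32 and 9.54 CPM with DMSO (log2 fold change 1.72 ± 0.29), with ITGA6 lowest in cytarabine replicate 2 among treated libraries. Of the antigen presentation genes 4 of 17 were called higher (background 7.58%). Leaving out cytarabine replicate 1 left 2, without HLA-DMA (0.91) and CIITA (0.91).

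Several receptors rose from low control levels. FGFR3, a fibroblast growth factor receptor, was at 9.34, 13.9 and 9.04 CPM with cytarabine, against 0.617, 0.394 and 0.87 CPM with DMSO (log2 fold change 4.09 ± 0.29). CCR7, a receptor that guides leukocytes to lymph nodes, was at 4.12, 7.76 and 4.12 CPM with cytarabine, against 0.24, 0.23 and 0.335 CPM with DMSO (log2 fold change 4.30 ± 0.36). The adhesion protein gene NECTIN4 was at 3.96, 10.2 and 3.78 CPM with cytarabine, against 0.103, 0.525 and 0.368 CPM with DMSO (log2 fold change 4.15 ± 0.56). For CCR7 and NECTIN4 cytarabine replicate 2 was the highest library, and the other treated libraries were also above every control. IL7R, the interleukin-7 receptor, was at 89.6, 41.8 and 63.9 CPM with cytarabine, against 17.4, 15.7 and 18.8 CPM with DMSO (log2 fold change 1.91 ± 0.24), and KIT, the receptor of stem cell factor, at 2.64 ± 0.196 CPM with cytarabine and 0.379 ± 0.0646 CPM with DMSO (log2 fold change 2.79 ± 0.27). PLXNA2, a semaphorin receptor, A4GALT, which makes the glycolipid Gb3, and the amino acid transporter gene SLC43A2 were among the 12 largest rises of coding genes at 5 CPM or more without overlap, at 3.23, 3.17 and 3.50.

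**Figure D4:**
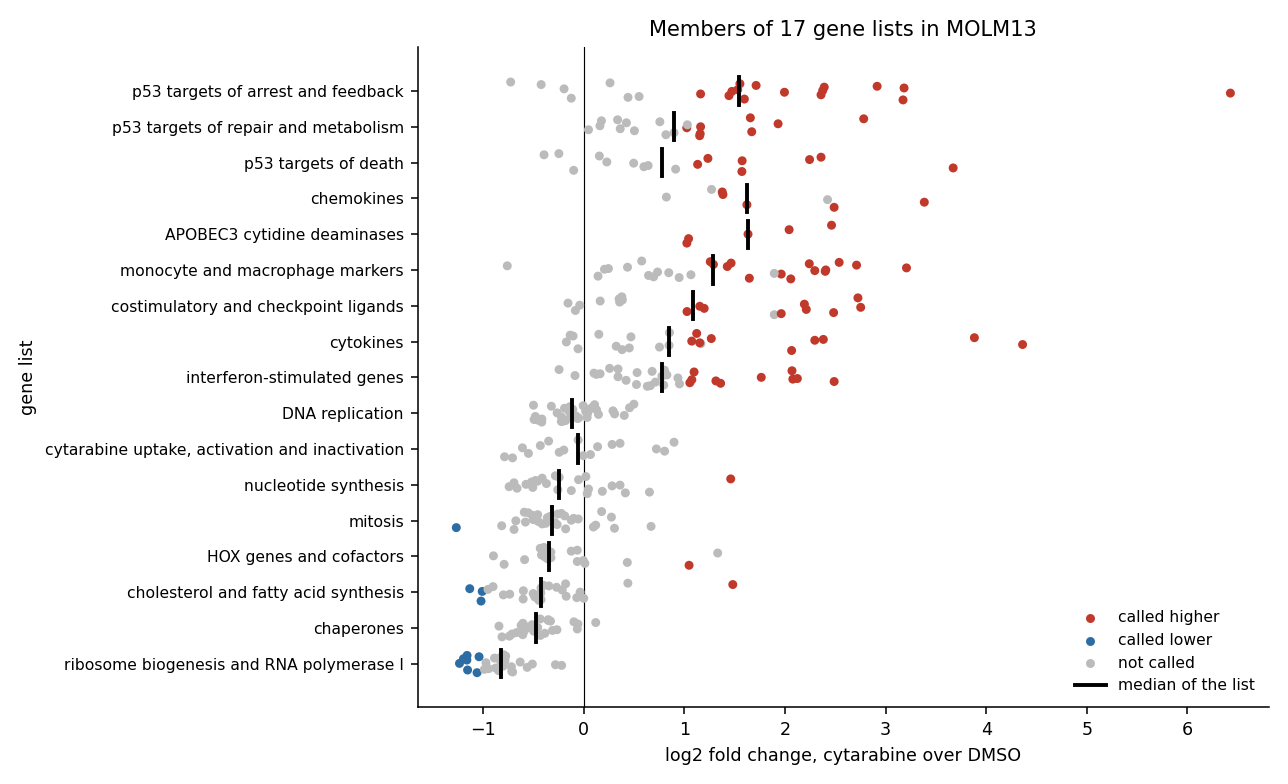
Log2 fold change of cytarabine over DMSO for each tested member of 17 gene lists in MOLM13. Points are genes, red called higher, blue called lower and gray not called, and black bars are list medians. The medians ran from 1.63 for APOBEC3 cytidine deaminases to -0.83 for ribosome biogenesis. CCL3, with no read in DMSO, is left out of the points.

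Of 28 tested genes of oxidative stress and iron, 2 were called higher (1 to 5 when 1 library was left out), a share near the 7.58% of all genes, and at FDR alone 9 were higher and 6 lower. HMOX1, heme oxygenase 1, was at 15.8, 13.8 and 9.12 CPM with cytarabine, against 0.411, 1.31 and 1.07 CPM with DMSO (log2 fold change 3.79 ± 0.36). The other, the porphyrin transporter ABCB6, lay at 0.81 without DMSO replicate 1. Cholesterol and fatty acid synthesis had 3 calls lower and 1 higher among 27 tested (background 1.13% and 7.58%). At FDR alone 14 were lower (background 22.4%), and the median was -0.43. Leaving out 1 library gave 0 to 5 calls lower, and the replicate block gave 1. SCD, stearoyl-CoA desaturase, was at 387, 359 and 576 CPM with cytarabine, against 1073, 623 and 1199.8 CPM with DMSO (log2 fold change -1.13 ± 0.25) and lay at -0.95 without DMSO replicate 3. INSIG1 and HMGCS1, both targets of the sterol-sensing factor SREBP2, were called at -1.01 and -1.02, and lay at -0.79 and -0.65 without DMSO replicate 3. In these 3 genes DMSO replicate 2 was the lowest control. ABCA1, which exports cholesterol, was at 6.03, 3.01 and 7.60 CPM with cytarabine, against 1.61, 1.87 and 2.44 CPM with DMSO (log2 fold change 1.48 ± 0.33). CYP1B1, a cytochrome P450 enzyme, was at 912, 716 and 807 CPM with cytarabine, against 214, 448 and 239 CPM with DMSO (log2 fold change 1.44 ± 0.25). ENPP2, autotaxin, was at 1004, 419 and 766 CPM with cytarabine, against 383, 217 and 409 CPM with DMSO (log2 fold change 1.12 ± 0.31), and lost its call without DMSO replicate 2 (0.88), cytarabine replicate 1 (0.81) or cytarabine replicate 3 (FDR 0.0523).

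The effect of cytarabine in MOLM13 was tested against its effect in HL60, a line treated with the same dose for the same time, for 15 genes that include p53, cell cycle and myeloid genes. Over all 16698 genes in this fit, the effect was higher in MOLM13 for 461 (2.76%) and lower for 1387 (8.31%), at FDR under 0.05. CPM in this and the next comparison are normalized over all 36 libraries and so differ slightly from those above. MDM2 was at 461, 565 and 478 CPM with cytarabine and 139, 204 and 156 CPM with DMSO in MOLM13, and at 101, 95.6 and 104 CPM with cytarabine and 91.2, 97.6 and 107 CPM with DMSO in HL60. The effect on MDM2 was higher in MOLM13 by 1.53 ± 0.18 (log2, SE, FDR 0.000197), and that on ZMAT3 by 2.01 ± 0.23 (FDR 0.000197). ZMAT3 had a log2 fold change of -0.63 in HL60. CDKN1A moved the other way, with an effect that was smaller in MOLM13 (-4.49 ± 0.61, FDR 0.000593). HL60 cells had 44.9, 36.7 and 43.2 CPM of CDKN1A with cytarabine and 0.371, 0.168 and 0.0995 CPM with DMSO, so the HL60 fold came from a control level near 0 and the treated level was below that of untreated MOLM13.

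The effect on CXCL8 was also smaller in MOLM13 (-3.85 ± 0.82, FDR 0.00948), and those on E2F1, MCM5 and RRM2 differed by -1.16 ± 0.21, -0.56 ± 0.11 and -0.69 ± 0.19 on the log2 scale. The call for RRM2 was lost in 12 of 17 alternatives, and those for E2F1 and MCM5 in the fit of all 36 libraries. E2F1 rose in HL60, at 201, 147 and 154 CPM with cytarabine and 102, 77 and 78 CPM with DMSO, and did not pass the test in MOLM13. For MYC (-0.38 ± 0.21), HMOX1 (-0.11 ± 0.51), ITGAM (-0.92 ± 0.54) and APOBEC3B (-0.14 ± 0.24) the difference between the lines did not pass the test, which does not show that the effects were equal. FAS differed by 0.48 ± 0.28 (FDR 0.312), or by 0.48 with an FDR of 0.0279 when the replicate number within each line was used as a block. GDF15 was at 0 in all 3 HL60 DMSO libraries and its difference is not estimable with any precision (SE 3.31).

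**Figure D5:**
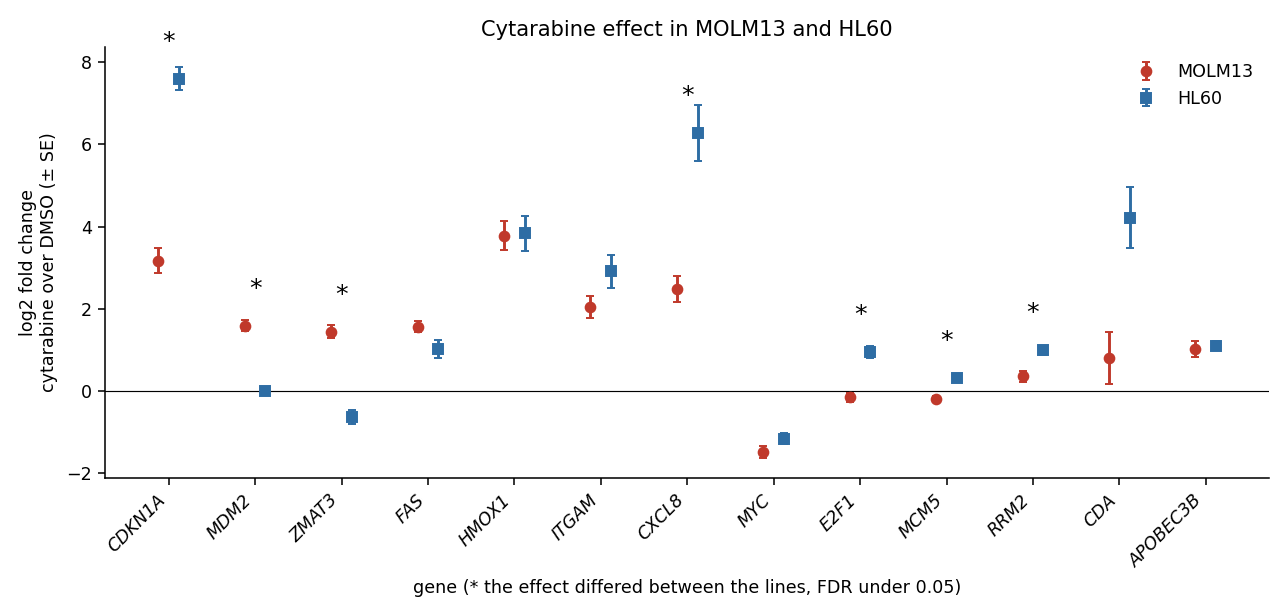
Log2 fold change of cytarabine over DMSO for 13 genes in MOLM13 (red circles) and HL60 (blue squares), each line fitted by itself, with bars of 1 standard error. A star marks an effect that differed between the lines at FDR under 0.05, as for MDM2, at 1.60 in MOLM13 and 0.01 in HL60.

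Cytarabine was also tested directly against 0.02 µM daunorubicin in MOLM13, which does not use the DMSO libraries. Of 15273 genes 2578 (16.9%) were higher with cytarabine and 1920 (12.6%) lower, at FDR under 0.05. The CDKN1A levels were 1640, 1870 and 1580 CPM with cytarabine, against 1910, 1230 and 1870 CPM with daunorubicin, a difference of 0.02 ± 0.16 (log2, SE, FDR 0.952). MDM2 was lower with cytarabine, at 461, 565 and 478 CPM, against 761, 815 and 864 CPM with daunorubicin (-0.70 ± 0.09, FDR 0.00277), and ZMAT3 differed by -0.71 ± 0.08. The S phase genes RRM2, E2F1 and MCM5 were higher with cytarabine. RRM2 was at 440, 628 and 425 CPM with cytarabine, against 63.5, 19 and 97.7 CPM with daunorubicin (3.05 ± 0.52, FDR 0.00592). E2F1 and MCM5 differed by 2.14 ± 0.48 and 1.39 ± 0.33, calls that were lost without daunorubicin replicate 1 or cytarabine replicate 2, and for MCM5 also without cytarabine replicate 3 (FDR up to 0.0543 and 0.0579). GDF15 (1.53 ± 0.46), CXCL8 (1.05 ± 0.29) and APOBEC3B (2.09 ± 0.54) were called higher with cytarabine, and the call was lost in 5, 4 and 4 of the 6 fits that left out 1 library (FDR up to 0.129, 0.09 and 0.0691). MYC was at 236, 233 and 295 CPM with cytarabine, against 257, 356 and 306 CPM with daunorubicin (-0.27 ± 0.14, FDR 0.172). The drugs were used at different doses, so these are differences between 2 treatments.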

How the data were processed

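The authors quantified reads with Salmon 1.8.0 against Ensembl GRCh38 transcripts, after FastQC 0.11.9, and deposited unnormalized estimated counts per transcript, 1 table per library. TPM values, also deposited by the authors, were used here for transcript shares and the length offset. Per the submitters' notes the libraries were unstranded and paired-end, so a gene and its antisense partner cannot be told apart, and neither the Ensembl release nor any RNA selection is given in the sources used here. Of 252199 transcripts, 235378 matched 59041 genes of GENCODE release 44, and the other 16821 held 4.05% to 4.17% of the counts and were not used.

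Counts were summed per gene, rounded, filtered with filterByExpr (min.count 10), normalized by TMM and fitted over the 6 libraries alone with glmQLFit and glmQLFTest in edgeR 4.0.16 under R 4.3.3, with Benjamini-Hochberg adjustment. The thresholds were an FDR under 0.05 with a log2 fold change beyond 1, those of the study, and the other 2 comparisons used the FDR alone. Each standard error is the absolute log2 fold change over the root of its F statistic. Conditions and replicate numbers came from the labels. Replicate libraries differed by more than sampling noise (chi-square per gene 8.02 to 20.9). Same-numbered HL60 libraries deviated together (r 0.118 to 0.171 over 3 pairs), a pairing seen in the data and not given by the labels, while those of MOLM13 did not.

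Named genes were the 12 protein-coding genes per direction with the largest fold among called genes that averaged 5 CPM or more in the higher group and did not overlap, the 5 of other biotypes, the 5 with the highest mean CPM, members of 42 gene lists and a fixed set of 15. The members and lists were chosen with earlier results of these data known, and the examples after their values were seen. The alternatives tried were RLE normalization, DESeq2 1.42.0, an exact test in edgeR, other filters, the transcript length offset, fits of 12 and 36 libraries, a replicate block, glmTreat, no fold threshold and each library left out. The fits were tested on simulated counts. Sequences came from GRCh38 and RefSeq, and tables came from Python 3.11.15, pandas 2.3.3 and, for plots, matplotlib 3.10.9. Some of the named genes are not reported here.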

Additional observations from a re-analysis of the deposited data

Results flagged for a closer look

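For 7 of the 15 genes compared between lines, a test of the difference itself separated the effect of cytarabine in MOLM13 from that in HL60 (edgeR interaction, FDR under 0.05). Over all 16698 genes in this fit, the effect was higher in MOLM13 for 2.76% and lower for 8.31%. The difference in log2 fold change, MOLM13 minus HL60, was 1.53 for MDM2 and 2.01 for ZMAT3, both larger in MOLM13. It was -4.49 for CDKN1A, -3.85 for CXCL8, -1.16 for E2F1, -0.557 for MCM5 and -0.693 for RRM2. The differences for CDKN1A, MDM2, ZMAT3 and CXCL8 kept their calls under each of 17 alternatives. That for RRM2 lost its call in 12 of the 17, and those for E2F1 and MCM5 in 1 each. Leaving out 1 of the 12 libraries moved CDKN1A between -5.08 and -3.98, MDM2 between 1.45 and 1.74, ZMAT3 between 1.88 and 2.23 and CXCL8 between -4.21 and -3.32. CDA, at -3.48 ± 1.10 (FDR 0.0576), did not pass, and its HL60 controls were at or near 0.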

How the results depend on the processing

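The counts of 1157 genes higher and 172 lower moved most with the threshold. They were 3180 higher and 3424 lower with no fold threshold, and 165 higher and 8 lower with glmTreat. Calls lower were 105 with a filter of at least 1 CPM in at least 3 libraries and 98 among protein-coding genes alone, where fewer genes were tested. Leaving out 1 library gave 940 to 1293 calls higher and 123 to 209 lower, and 721 and 69 of the called genes kept their call in all 6 such fits. Of 171 named genes called, 168 kept the call under DESeq2, 158 with the transcript length offset and 51 under glmTreat. Same-numbered MOLM13 libraries did not deviate together (r 0.00618, 0.0945 and 0.0488), and the replicate block gave 1145 calls higher and 172 lower. It lifted ITGAM past the threshold against daunorubicin (0.25, FDR 0.0277). The log2 fold change of DCK, -0.00328, was 0.00221 with no low-count filter, 0.0191 with the stricter filter, 0.0224 among protein-coding genes alone and 0.076 with the length offset, and leaving out 1 library gave -0.104 to 0.0648. Between MOLM13 and HL60, leaving out 1 library gave -0.424 to 0.258 for HMOX1, -2.69 to 0.170 for CD14 and -0.268 to 0.213 for APOBEC3B. Against daunorubicin, CDKN1A was -0.00712 in the fit of 12 libraries and -0.163 to 0.123 without 1 library, and FAS -0.0263 to 0.169. None of the values given for DCK, HMOX1, CD14, APOBEC3B, CDKN1A and FAS passed its test. No scaling moved the median of all genes by more than 0.1. Each scaling sets the bulk of genes near no change, so this median cannot show a shift in total RNA. Of the genes called higher 50.1% lie under 1 CPM in controls, where counting error is largest.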
